A study of Mus musculus with 19 samples.

Results

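The 8 genes described here handle iron or build iron-sulfur clusters: Iscu, Fth1, Ftl1, Tfrc, Slc11a1, Slc11a2, Ireb2 and Aco1. They were chosen by Iscu's fall in inflamed CCR1/2+ve monocytes, and the other 7 are known genes of iron handling. Values of that contrast are therefore given as a description with no test. All 8 had counts in the table of 50854 genes, and 88 of 93 further iron genes, listed by function, had a row. RNA of cells sorted from the bone marrow of female REP mice, aged 8 to 12 weeks, was sequenced in bulk. REP mice carry fluorescent reporters of inflammatory chemokine receptors, and monocytes were sorted by the reporters of CCR1 and CCR2. For a sort of resting marrow monocytes for culture the study's methods give the surface gate CD11b+ Ly6C++ Ly6G- SiglecF-; whether these libraries used it is not given in the sources used here. The groups compared, all from REP mice, were resting CCR2+ve (n = 4), resting CCR1/2+ve (n = 4), inflamed CCR2+ve (n = 4), inflamed CCR1/2+ve (n = 3) and inflamed CCR1 (n = 4).

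Inflamed mice had received IL-3, IL-6, GM-CSF and IFN-α from osmotic pumps under the skin for 7 d. Whether the resting mice of these libraries carried vehicle pumps is not given in the sources used here, so pump and cytokines cannot be told apart, nor is it given whether resting and inflamed libraries were prepared together. Nothing in the labels says that replicates came from separate animals, and p-values then measure the spread between these libraries. Reads on genes ranged from 22268658 to 30502009 per library. Levels are given as CPM, reads of a gene scaled to a common library total, after TMM scaling, which corrects for differences in composition between libraries. In bulk samples fewer cells of a type and less RNA per cell cannot be told apart.

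Monocytes and macrophages take up iron, store it and return it to the circulation. Transferrin-bound iron enters through the transferrin receptor (Tfrc), and DMT1 (Slc11a2) carries ferrous iron out of the endosome. NRAMP1 (Slc11a1) pumps divalent metals out of the phagosome and is known for its part in resistance to intracellular bacteria. Ferritin, a shell of heavy (Fth1) and light (Ftl1) chains, stores iron; the heavy chain oxidizes it. ISCU is the mitochondrial scaffold on which iron-sulfur clusters are built. The iron regulatory proteins, encoded by Aco1 and Ireb2, bind a hairpin in untranslated regions, the iron-responsive element. Binding in a 5′ UTR blocks translation and binding in a 3′ UTR stabilizes the transcript, and Aco1's product is a cytosolic aconitase while it holds a cluster.

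The hairpins are shown because the iron regulatory proteins act through such sites on transcripts that hold them. UTRs of GENCODE M21 transcripts were searched on the transcript strand for C, 5 bases, CAGTG, any base and 5 bases, with both arms of 5 pairing at every position, G-U pairs allowed. Of the 8 genes, 3 held 6 matches, and 175 of 21505 protein-coding genes with a UTR (0.814%) held any. The search misses hairpins with a bulge or an unpaired base in these arms. A member without a match here may therefore hold an element, and Tfrc may hold more. The matches lie in exons of GRCm38, and capitals mark the loop. In Fth1 it is in the 5′ UTR at chr19:9982733-9982759 (+), in Ftl1 in the 5′ UTR at chr7:45459780-45459806 (−), and in Tfrc 4 lie in the 3′ UTR on the + strand at chr16:32631220-32631246, chr16:32631599-32631625, chr16:32631664-32631690 and chr16:32631711-32631737. Ferroportin (Slc40a1), the iron exporter, is no member but held a match in its 5′ UTR at chr1:45925466-45925492 (−).
Fth1: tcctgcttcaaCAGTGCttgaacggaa
Ftl1: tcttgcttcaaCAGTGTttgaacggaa
Tfrc 1: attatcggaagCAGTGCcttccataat
Tfrc 2: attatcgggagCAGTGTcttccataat
Tfrc 3: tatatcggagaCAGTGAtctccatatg
Tfrc 4: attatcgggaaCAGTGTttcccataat
Slc40a1: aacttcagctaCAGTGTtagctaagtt
A match is a run of letters in a window and says nothing of binding in these cells.

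Iscu (ENSMUSG00000025825, chromosome 5, 113772748 to 113778288, + strand) stood at 202, 180, 225 and 242 CPM in the resting CCR2+ve libraries. In the inflamed CCR2+ve libraries it stood at 5.85, 5.16, 5.66 and 9.08 CPM, from 111 to 211 reads per library. The groups did not overlap, and every inflamed library lay far below every resting one. The fall was 34.4-fold, a log2 fold change of −5.10 ± 0.19 (SE; edgeR quasi-likelihood test, adjusted p = 2.99e-11). The gene was chosen in CCR1/2+ve libraries, not in these. The resting libraries of the 2 populations were paired by replicate number, and both contrasts hold the same step from rest to inflammation. The test is therefore not independent of that choice. In the resting CCR1/2+ve libraries Iscu stood at 158, 145, 169 and 188 CPM and in the inflamed CCR1/2+ve libraries at 4.12, 4.85 and 3.73 CPM, a log2 difference of −5.41 ± 0.13 (SE) that chose the gene and is given with no test. The libraries labelled inflamed CCR1 had 3.78, 2.94, 3.10 and 3.06 CPM. Of 7685 genes with a mean of at least 10 CPM, 10 had a lower log2 fold change than Iscu between inflamed and resting CCR2+ve cells.

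Fth1, the ferritin heavy chain (ENSMUSG00000024661, chromosome 19, 9980598 to 9985098, + strand), fell as well. It stood at 1222, 1025, 1161 and 1259 CPM in resting CCR2+ve libraries and at 155, 123, 170 and 75.9 CPM in inflamed CCR2+ve libraries. Again the groups lay apart, although inflamed libraries differed among themselves by over 2-fold. The log2 fold change was −3.23 ± 0.20 (adjusted p = 4.58e-09, edgeR), a fall of 9.37-fold. In CCR1/2+ve cells Fth1 went from 799, 698, 888 and 884 CPM at rest to 44.5, 74.6 and 128 CPM when inflamed, and in the libraries labelled inflamed CCR1 it was 60.1, 57.4, 53.4 and 28.5 CPM.

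Ftl1, the light chain (ENSMUSG00000050708, chromosome 7, 45457944 to 45459884, − strand), moved the other way. Resting CCR2+ve libraries had 2080, 1855, 2262 and 2335 CPM and inflamed CCR2+ve libraries 3117, 2788, 3084 and 3096 CPM. All inflamed libraries were above all resting ones, with a log2 fold change of 0.43 ± 0.10 (adjusted p = 0.00159, edgeR). In CCR1/2+ve cells it went from 1771, 1567, 1956 and 1846 CPM to 3540, 3660 and 3625 CPM. The libraries labelled inflamed CCR1 held the lowest levels of the 5 groups, 959, 1024, 1072 and 1054 CPM.

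Set side by side per length, Fth1 was 0.21 ± 0.01 of Ftl1 in resting CCR2+ve cells and 0.02 ± 0.01 in inflamed CCR2+ve cells (ratio of CPM per kb of exon, mean ± SD, n = 4 each). The ratio was 0.177 ± 0.006 in resting and 0.009 ± 0.004 in inflamed CCR1/2+ve cells (n = 4 and 3). Its highest value in any inflamed library was 0.0242 and its lowest in any resting library 0.172. Length is the union of all annotated exons, 3469 bases for Fth1 and 1340 for Ftl1. Reads were kept by the authors only where they aligned to 1 place, so ferritin reads shared with processed copies are lost or split. Ftl2-ps, such a copy, held 68.7 ± 3.95 CPM in resting and 87.9 ± 7.35 CPM in inflamed CCR2+ve libraries (SD, n = 4 each), Ftl1-ps2 3.88 ± 0.47 and 1.04 ± 0.25 CPM, and Fth-ps2 0.31 ± 0.21 and 0.51 ± 0.49 CPM. Fth-ps3 had at most 3 reads in any library and Ftl1-ps1 had 0. These copies of Fth1 took few counted reads in either state. Exons of Ftl1 share 355 bases with Gm10252, which had 27 reads over all libraries, and 109 with Gm22133, which had 0.

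**Figure D1:**
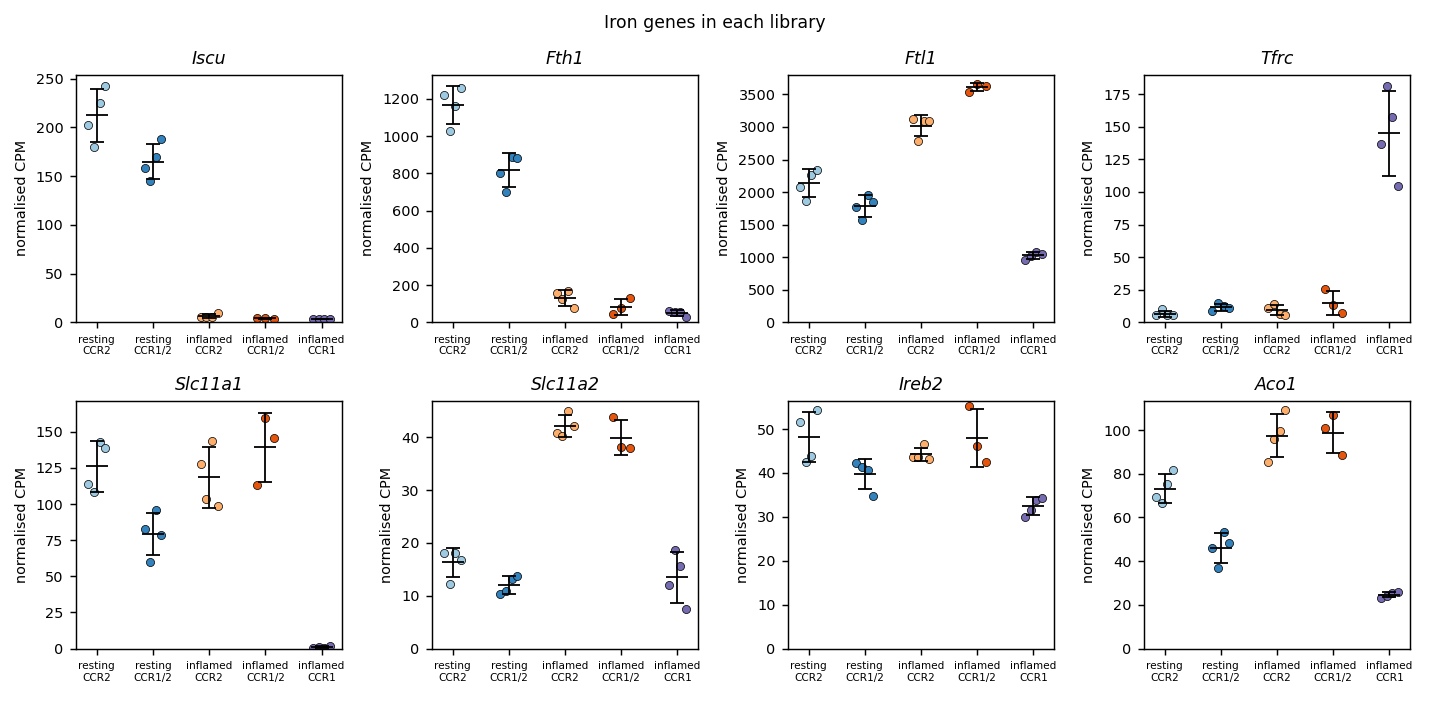
Normalised CPM of the 8 genes in each of the 19 libraries (points), with the mean and SD of each group (horizontal and vertical bars); each panel has its own linear axis from 0. Iscu and Fth1 are low in all inflamed groups, and Tfrc is high and Slc11a1 near 0 in the libraries labelled inflamed CCR1.

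**Figure D2:**
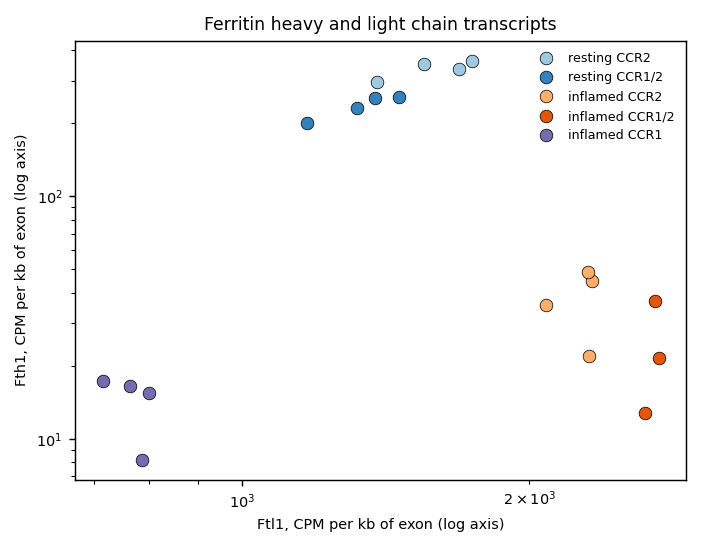
Fth1 (vertical) against Ftl1 (horizontal) in each library, both in CPM per kb of exon on log axes, coloured by group. Inflamed CCR2 and CCR1/2 libraries lie below and to the right of the resting ones, and inflamed CCR1 libraries lie below and to the left.

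Slc11a2 (ENSMUSG00000023030, chromosome 15, 100387898 to 100425072, − strand), which encodes DMT1, rose. Its levels were 18.2, 12.3, 18.1 and 16.7 CPM in resting and 40.8, 40.3, 45.0 and 42.1 CPM in inflamed CCR2+ve libraries. The groups were well apart, with a log2 fold change of 1.30 ± 0.13 (adjusted p = 1.16e-06, edgeR). In CCR1/2+ve cells it went from 10.3, 10.8, 13.1 and 13.7 CPM to 43.8, 38.1 and 37.9 CPM. Its exons share 402 bases with Gm5475, which had 0 reads.

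Aco1 (ENSMUSG00000028405, chromosome 4, 40143081 to 40198338, + strand) rose by less. It had 69.2, 66.5, 75.4 and 81.6 CPM in resting and 85.2, 96.0, 99.4 and 109 CPM in inflamed CCR2+ve libraries, a log2 fold change of 0.34 ± 0.11 (adjusted p = 0.0171, edgeR), with no overlap. In CCR1/2+ve cells it went from 46.0, 37.0, 53.3 and 48.2 CPM to 101, 107 and 88.6 CPM. Ireb2 (ENSMUSG00000032293, chromosome 9, 54863789 to 54912530, + strand), the other iron regulatory protein gene, overlapped between inflamed (43.2 to 46.5 CPM) and resting (42.6 to 54.2 CPM) CCR2+ve libraries. Its log2 fold change was −0.19 ± 0.11 (adjusted p = 0.171, edgeR), and 0.17 with counts corrected for GC content.

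Tfrc (ENSMUSG00000022797, chromosome 16, 32608920 to 32632794, + strand) was low in both states. It had 5.59, 9.81, 5.51 and 5.28 CPM in resting and 10.8, 13.7, 6.0005 and 5.81 CPM in inflamed CCR2+ve libraries. These overlapped, and the log2 fold change of 0.38 ± 0.29 did not pass (adjusted p = 0.297, edgeR), although it was 0.75 with an adjusted p of 0.0242 after the GC correction. In CCR1/2+ve cells it was 8.34, 14.7, 12.3 and 10.8 CPM at rest and 25.2, 13.0 and 6.85 CPM when inflamed. Slc11a1 (ENSMUSG00000026177, chromosome 1, 74375195 to 74386062, + strand) overlapped as well, with 99.0 to 143 CPM in inflamed and 108 to 143 CPM in resting CCR2+ve libraries (log2 fold change −0.16 ± 0.13, adjusted p = 0.356, edgeR). In CCR1/2+ve cells it went from 60.1 to 95.9 CPM at rest to 113 to 159 CPM when inflamed, with no overlap.

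Between inflamed and resting CCR2+ve cells, 3 of the 8 genes passed the test upward and 2 downward (median log2 fold change 0.09, and −0.10 for all genes), where 21.9% of the 18652 genes tested passed upward and 25.9% downward. Iscu, by which the set was chosen, is among those that passed downward. With the GC correction 5208 genes passed upward and 3954 downward, against 4082 and 4839 without it, and the median log2 fold change of all genes went from −0.10 to 0.11. Groups did not overlap for the 5 genes that passed, as for 45.7% of all genes tested. The exact permutation test gave p = 0.0286 for each of the 5, the smallest p that 4 against 4 libraries allow. In the contrast that chose the set, log2 fold changes in CCR1/2+ve cells were −5.41 for Iscu, −3.43 for Fth1, 0.89 for Ftl1, 0.23 for Tfrc, 0.69 for Slc11a1, 1.61 for Slc11a2, 0.13 for Ireb2 and 0.97 for Aco1. Those in CCR2+ve cells were −5.10, −3.23, 0.43, 0.38, −0.16, 1.30, −0.19 and 0.34 in the same order. The difference between populations was not tested, since 1 of the 2 contrasts chose the members.

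**Figure D3:**
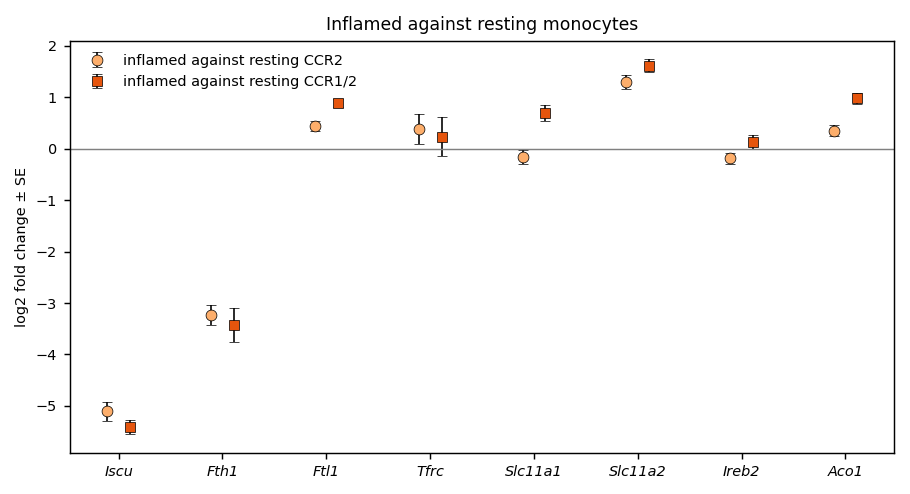
Log2 fold change of the 8 genes, inflamed over resting, with its SE from the edgeR fit, in CCR2+ve cells (circles) and CCR1/2+ve cells (squares). Iscu lies at −5.10 and −5.41 and Fth1 at −3.23 and −3.43; the changes of the other 6 genes lie between −0.19 and 1.61.

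Other features of the libraries moved with inflammation. The summed level of 12 monocyte markers was 46737 to 53540 CPM in resting and 48504 to 59449 CPM in inflamed CCR2+ve libraries, and all 12 had at least 10 CPM in both. Lyz2 made up most of that sum (36342 and 36400 CPM on average), and within the list Irf8 stood at 485 and 87.4 CPM, Klf4 at 118 and 29.7 CPM and Fcgr1 at 136 and 427 CPM in resting and inflamed libraries. Erythroid RNA, from cells rich in iron genes, was lower after inflammation. The sum of 9 markers was 94.7 to 297 CPM in resting and 1.25 to 4.74 CPM in inflamed CCR2+ve libraries. Alas2, a marker of red cell precursors, was at 3.41 CPM on average at rest. How much of the Iscu or Fth1 RNA at rest came from erythroid cells was not tested, and a marker sum does not show it. Mature neutrophil markers summed to 809 to 1100 CPM in resting and 1663 to 1940 CPM in inflamed CCR2+ve libraries, mostly Mmp8 (548 and 1044 CPM on average) and Csf3r (222 and 470 CPM). Tissue macrophage markers summed to 289 to 401 and 562 to 781 CPM, mostly Adgre1 (314 and 538 CPM). Cell division genes summed to 1421 to 1799 CPM in resting and 1684 to 2863 CPM in inflamed libraries. The part of these lists in the result was not tested. Genes outside iron handling fell too. Pfn1, which encodes an actin-binding protein, went from 3014 ± 231 to 166 ± 29.0 CPM (SD, n = 4 each; adjusted p = 1.23e-11, edgeR). Spi1, which encodes the myeloid transcription factor PU.1, went from 735 ± 74.9 to 38.1 ± 1.64 CPM (adjusted p = 2.95e-12, edgeR). These 2 genes were named after their values were seen.

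The wider iron genes were described for the same contrast. Of 80 tested, 30 passed upward and 23 downward, where 21.9% of all genes passed upward and 25.9% downward, with a median log2 fold change of 0.13 beside −0.10 for all genes. Mitochondrial cluster assembly, the pathway of Iscu, had 1 of 16 up and 7 down (median −0.23), beside the same 21.9% and 25.9% of all genes. Glrx5, which passes clusters on from the scaffold, went from 70.6 ± 10.1 to 3.32 ± 0.55 CPM (log2 fold change −4.47, adjusted p = 2.39e-11, edgeR). Fdx1, a ferredoxin, went from 12.8 ± 1.92 to 0.532 ± 0.118 CPM (−4.64, adjusted p = 4.94e-10, edgeR). Fdxr, the reductase that supplies ferredoxins with electrons, was the gene that rose, from 9.94 ± 1.01 to 18.03 ± 1.76 CPM. Nfs1 and Lyrm4, partners of ISCU in the assembly complex, named after their values were seen, had log2 fold changes of 0.06 and −0.25 that did not pass. Isca1 had 0 reads in every library. Only reads with 1 alignment were counted, and whether this took reads from Isca1 was not tested.

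The list of cytosolic cluster assembly had 7 of 14 up and 4 down (median 0.31), beside 21.9% and 25.9% of all genes. It also holds Cisd1, Cisd2 and Cisd3, which are cluster proteins and not assembly factors. Ciao3 rose from 46.7 ± 4.58 to 96.3 ± 7.27 CPM and Glrx3 from 97.9 ± 4.57 to 182 ± 12.0 CPM. Nubp1, an early scaffold of that route, fell from 50.1 ± 3.52 to 7.66 ± 0.85 CPM, and Cisd1, a cluster protein of the outer mitochondrial membrane, from 89.4 ± 12.4 to 20.9 ± 5.997 CPM. Among enzymes that carry clusters, 11 of 18 rose and 2 fell (median 0.60), again beside 21.9% and 25.9% of all genes. Uqcrfs1, the Rieske protein of respiratory complex III, fell from 276 ± 16.4 to 14.6 ± 1.33 CPM (log2 fold change −4.31, adjusted p = 4.90e-12, edgeR), and Rsad2, the interferon-induced viperin, from 73.5 ± 24.0 to 37.7 ± 10.8 CPM. Xdh, xanthine dehydrogenase, rose from 480 ± 40.4 to 1267 ± 98.0 CPM and Pold1, a DNA polymerase subunit, from 31.9 ± 7.49 to 122 ± 18.97 CPM.

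Heme genes split, with 6 of 18 up and 7 down (median −0.07), where 21.9% and 25.9% of all genes passed. Slc48a1, which carries heme out of lysosomes, fell from 85.3 ± 5.35 to 15.9 ± 0.68 CPM. Ppox, an enzyme of heme synthesis, rose from 31.3 ± 3.61 to 64.3 ± 7.86 CPM, and Hmox2, which degrades heme, from 113 ± 8.11 to 182 ± 4.89 CPM. Of 8 uptake and transport genes 3 rose and 2 fell (median −0.33), beside the same 21.9% and 25.9% of all genes. Steap3, the endosomal ferrireductase, rose from 21.4 ± 1.10 to 69.3 ± 5.97 CPM and Lrp1, a receptor that takes up heme with hemopexin, from 97.2 ± 14.8 to 366 ± 36.7 CPM. Mcoln1, an endolysosomal channel that passes iron, fell from 44.6 ± 3.44 to 8.90 ± 2.72 CPM and the metal importer Slc39a8 from 3.68 ± 0.78 to 0.471 ± 0.298 CPM. In storage, export and systemic control 2 of 6 rose and 1 fell (median 0.10), beside the same shares of all genes. Fbxl5, which targets iron regulatory protein for degradation when iron is plentiful, rose from 149 ± 16.1 to 312 ± 52.6 CPM, and Hfe from 47.0 ± 5.88 to 88.9 ± 9.10 CPM. Pcbp1, a chaperone that brings iron to ferritin, fell from 185 ± 10.1 to 38.7 ± 6.99 CPM (log2 fold change −2.33, adjusted p = 2.50e-09, edgeR). The values of these lists are means ± SD of 4 libraries, and no set test was run.

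**Figure D4:**
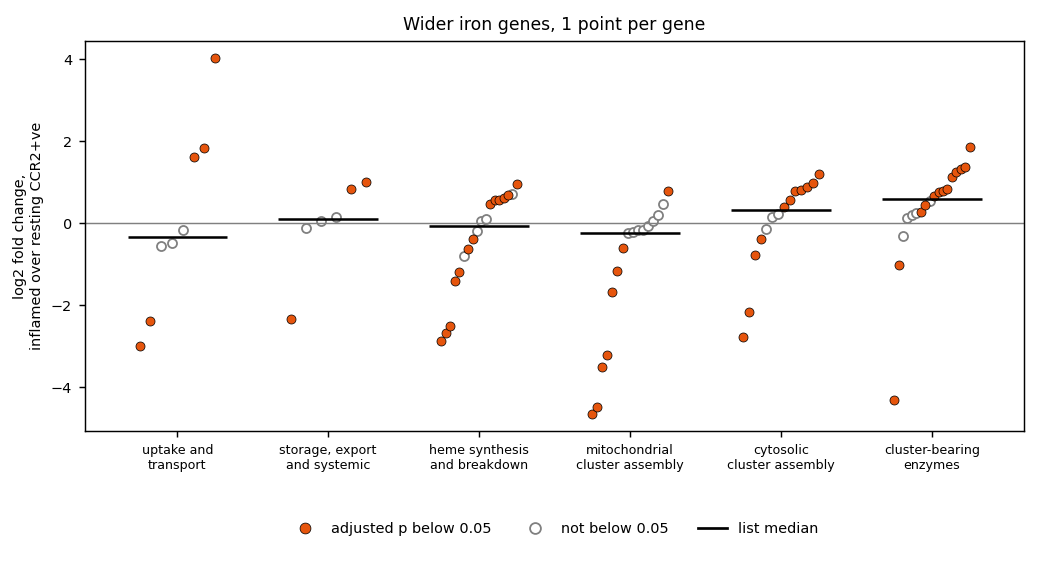
Log2 fold change, inflamed over resting CCR2+ve, of each of the 80 wider iron genes tested, by list; filled points passed at an adjusted p below 0.05 (edgeR) and bars mark list medians. The mitochondrial assembly list holds 7 filled points below 0 and 1 above, and the list of cluster-bearing enzymes 11 above and 2 below.

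At rest, CCR1/2+ve cells were compared with CCR2+ve cells to ask whether the populations differed before inflammation. Of the 7 genes tested here (Iscu is given by its values only), 1 passed upward and 3 downward, beside 8.44% of all genes upward and 8.44% downward. Aco1 was lower in CCR1/2+ve cells, at 46.1 ± 6.79 against 73.2 ± 6.76 CPM (log2 fold change −0.59 ± 0.10, adjusted p = 0.00141, edgeR). Slc11a1 was lower, at 79.3 ± 14.8 against 126 ± 17.6 CPM (−0.59 ± 0.12, adjusted p = 0.00536, edgeR), and Fth1 at 817 ± 89.7 against 1167 ± 102 CPM (−0.44 ± 0.09, adjusted p = 0.0044, edgeR). For these 3 genes no library of the lower group reached the other group, and groups did not overlap for 20.2% of all genes tested. With all 19 libraries in one fit Slc11a1 (−0.67, adjusted p = 0.0582, edgeR) and Fth1 (−0.51, adjusted p = 0.256, edgeR) no longer passed, with changes no smaller. Tfrc was higher, at 11.5 ± 2.68 against 6.55 ± 2.18 CPM (0.89 ± 0.23, adjusted p = 0.02, edgeR), with overlap and an exact permutation p of 0.0571. The permutation took no account of replicate number. In same-numbered libraries Tfrc was at 8.34 against 5.59, 14.7 against 9.81, 12.3 against 5.51 and 10.8 against 5.28 CPM, higher in CCR1/2+ve cells each time. Tfrc no longer passed without CCR1/2 replicate 2 or without CCR2 replicate 1, 3 or 4, with log2 fold changes of 0.73, 0.83, 0.81 and 0.78 and adjusted p (edgeR) of 0.0659, 0.0638, 0.0638 and 0.0717.

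Replicate numbers paired the resting libraries, and with the number as a block 5 genes passed downward: Ftl1 (log2 fold change −0.18, adjusted p = 0.00654, edgeR) and Slc11a2 (−0.36, adjusted p = 0.047, edgeR) were added. Tfrc still passed upward with the block. Of all genes 12.4% passed upward and 13.2% downward with the block. Iscu stood at 165 ± 18.4 and 212 ± 27.0 CPM, with overlap. Ireb2 stood at 39.8 ± 3.36 and 48.1 ± 5.71 CPM (adjusted p = 0.246, edgeR), without overlap (exact permutation p = 0.0286). With the GC correction Ireb2 passed downward (log2 fold change −0.37, adjusted p = 0.0341, edgeR), as it did with GC correction and block (−0.36, adjusted p = 0.00778, edgeR). The markers differed too: cell division genes summed to 2687 to 3359 CPM in CCR1/2+ve and 1421 to 1799 CPM in CCR2+ve cells, mature neutrophil markers to 2260 to 2758 and 809 to 1100 CPM, and monocyte markers to 31879 to 44720 and 46737 to 53540 CPM. Within the neutrophil list S100a8 stood at 1770 against 156 CPM on average. Camp (16.2 against 9.31 CPM), Mmp9 (2.11 against 0.0773 CPM) and Cxcr2 (1.93 against 0.512 CPM) were also higher on average. Mmp8 (451 against 548 CPM), Csf3r (170 against 222 CPM), Ltf (3.21 against 6.69 CPM) and Ngp (26.1 against 27.3 CPM) were not higher. Ly6g (0.490 against 0.446 CPM) and Retnlg (0.0725 against 0.223 CPM) had few reads. Dendritic cell markers summed to 34.1 to 115 CPM in CCR1/2+ve and 216 to 593 CPM in CCR2+ve cells, with Cd209a at 13.1 against 88.5 CPM and Flt3 at 5.28 against 32.2 CPM. Tissue macrophage markers summed to 222 to 303 CPM in CCR1/2+ve and 289 to 401 CPM in CCR2+ve cells, mostly Adgre1 (184 against 314 CPM on average). Of that list Vcam1 (26.2 against 1.69 CPM), C1qa, C1qb, C1qc, Cd5l and Spic were higher on average, and Adgre1, Axl, Mertk and Siglec1 lower. The part of these lists in the differences was not tested. Among the wider genes 14 of 80 were higher and 12 lower, beside 8.44% of all genes in each direction. With the block 17 were higher and 19 lower, beside 12.4% and 13.2% of all genes. Transferrin (Trf) was lower, at 5.66 ± 0.94 against 20.3 ± 4.77 CPM, and Glrx5 at 37.0 ± 5.88 against 70.6 ± 10.1 CPM. Isca2, a late assembly factor, was higher, at 91.7 ± 5.36 against 69.6 ± 2.11 CPM.

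After inflammation none of the same 7 genes passed between inflamed CCR1/2+ve and inflamed CCR2+ve cells by edgeR or by DESeq2, and 1, Ftl1, had an unadjusted p below 0.05 in edgeR. All genes passed at 0.123% upward and 0.0643% downward. Ftl1 was at 3608 ± 61.7 against 3022 ± 156 CPM (SD, n = 3 and 4; log2 fold change 0.24 ± 0.09, adjusted p = 0.429, edgeR), with every CCR1/2 library above every CCR2 library (groups did not overlap for 9.71% of all genes) and an exact permutation p of 0.0571, the smallest that 3 against 4 allow. Fth1 was at 82.4 ± 42.4 against 131 ± 41.5 CPM (−0.68 ± 0.43, adjusted p = 0.699, edgeR), and Tfrc at 15.003 ± 9.32 against 9.08 ± 3.86 CPM (0.69 ± 0.47, adjusted p = 0.722, edgeR), both with overlap. The differences for Slc11a1, Slc11a2, Ireb2 and Aco1 lay between −0.09 and 0.22, with SEs of 0.13 to 0.16. Iscu stood at 4.23 ± 0.57 and 6.44 ± 1.79 CPM, and no CCR1/2 library reached the CCR2 libraries. Of the 80 wider genes 0 passed by edgeR or by DESeq2, with 5 higher and 5 lower at an unadjusted p below 0.05 in edgeR, as were 4.44% and 4.54% of all genes.

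The libraries labelled inflamed CCR1 carry the cell type label monocytes, and most markers went against it. Their 12 monocyte markers summed to 8210 to 12938 CPM, with Ccr2 at 5.82 CPM, Csf1r at 17.7 CPM and Cd68 at 22.1 CPM on average, beside 1251, 1504 and 1188 CPM in inflamed CCR2+ve cells. Ly6c2 (1421 against 1856 CPM) and Itgam (91.8 against 114 CPM), of the same list, lay much closer. The 10 mature neutrophil markers summed to 99765 to 146411 CPM, mostly Ngp and Camp, beside 1663 to 1940 CPM in inflamed CCR2+ve cells. Of the same list only Mmp8 was lower than in inflamed CCR2+ve cells, at 9.10 against 1044 CPM on average. Csf3r was at 565 against 470 CPM. Ltf (8523 against 39.1 CPM), S100a8 (8396 against 99.3 CPM) and Cxcr2 (35.8 against 0.934 CPM) were higher. Ly6g (14.4 against 0.421 CPM), Retnlg (22.8 against 3.63 CPM) and Mmp9 (4.72 against 1.499 CPM) were higher too, at low levels. Cell division genes summed to 5225 to 5786 CPM, and Nkg7 of the T and NK cell list stood at 1562 CPM while Cd3e, Cd3d, Cd3g and Klrb1c were below 1 CPM. The comparisons with these libraries set kinds of cell against each other as well as receptors, and the 2 cannot be told apart.

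Against inflamed CCR2+ve cells, 1 of the 8 genes passed upward and 7 downward in these libraries, beside 22.7% and 25.4% of all genes. Tfrc stood at 137, 181, 157 and 105 CPM, against 5.81 to 13.7 CPM in inflamed CCR2+ve cells, 16.1-fold higher (log2 fold change 4.01 ± 0.30, adjusted p = 6.42e-07, edgeR). Slc11a1 was near 0, at 0.273, 1.09, 0.37 and 1.74 CPM, from 6 to 37 reads, against 99.0 to 143 CPM (−7.09 ± 0.40, adjusted p = 7.94e-08, edgeR). Importer and phagosomal pump thus lay at opposite ends of their range in the same libraries.

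Aco1 was 3.94-fold lower, at 24.7 ± 1.11 CPM (log2 fold change −1.98 ± 0.12, adjusted p = 3.47e-10, edgeR), Slc11a2 3.10-fold lower, at 13.5 ± 4.84 CPM, and Ftl1 2.93-fold lower, at 1027 ± 49.8 CPM. Fth1 was at 49.8 ± 14.5 CPM (−1.38 ± 0.29, adjusted p = 0.00307, edgeR), Iscu at 3.22 ± 0.38 CPM (−0.996 ± 0.235, adjusted p = 0.00195, edgeR) and Ireb2 at 32.4 ± 1.99 CPM (−0.44 ± 0.11, adjusted p = 0.0034, edgeR). For each of the 8 genes the groups did not overlap (exact permutation p = 0.0286), as for 45.3% of all genes tested. Deviations from group means correlated at 0.13 to 0.25 between same-numbered libraries of these groups and at −0.21 to 0.083 between the others. This is weak ground for pairing, and the replicate number as a block changed no call of the 8 genes.

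Of the 80 wider genes tested 20 were higher and 37 lower, beside 22.7% and 25.4% of all genes. Alas1, the first enzyme of heme synthesis, stood at 1299 ± 57.9 against 150 ± 20.7 CPM and Slc48a1 at 58.5 ± 10.2 against 15.9 ± 0.68 CPM. Lrp1 stood at 5.65 ± 1.21 against 366 ± 36.7 CPM and Hmox1, the inducible heme oxygenase, at 7.02 ± 1.402 against 130 ± 2.14 CPM. Slc40a1, named after its values were seen for its hairpin, stood at 538 ± 85.9 against 1.87 ± 1.17 CPM (log2 fold change 8.16, adjusted p = 1.60e-07, edgeR). Its level in resting cells was 1.75 ± 1.06 CPM in CCR2+ve and 16.8 ± 10.6 CPM in CCR1/2+ve libraries.

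Against inflamed CCR1/2+ve cells, 1 of the 7 genes tested passed upward and 5 downward in the libraries labelled inflamed CCR1, beside 20.2% and 23.0% of all genes. Tfrc was higher (log2 fold change 3.29 ± 0.48, adjusted p = 0.0016, edgeR), and Slc11a1 (−7.33), Aco1 (−2.003), Ftl1 (−1.81), Slc11a2 (−1.56) and Ireb2 (−0.56) were lower. Fth1 overlapped, with a log2 fold change of −0.73 ± 0.43 (adjusted p = 0.23, edgeR). This comparison shares its CCR1 libraries with the preceding one. Of the wider genes 17 were higher and 35 lower, among them Alas1 (2.76) and Abcb10, a mitochondrial transporter of heme synthesis (2.51), and Lrp1 (−5.73) and Hmox1 (−4.13).

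Per length, the order of the 8 genes changed between states. In resting CCR2+ve cells the mean levels in CPM per kb of exon ran Ftl1 (1592), Fth1 (336), Iscu (97.6), Slc11a1 (34.0), Aco1 (16.3), Ireb2 (5.07), Slc11a2 (2.57) and Tfrc (1.06), each gene above the next in all 4 libraries. In inflamed CCR2+ve cells it ran Ftl1 (2255), Fth1 (37.7), Slc11a1 (32.0), Aco1 (21.7), Slc11a2 (6.62), Ireb2 (4.67), Iscu (2.96) and Tfrc (1.47), where Fth1 and Slc11a1 overlapped. Iscu thus went from the third place to the seventh, and Slc11a2 passed Ireb2. Resting CCR1/2+ve cells had the order of resting CCR2+ve cells, with Slc11a2 (1.89) and Tfrc (1.86) overlapping. In inflamed CCR1/2+ve cells Iscu (1.95) was last and overlapped Tfrc (2.43), and Slc11a1 (37.6), Fth1 (23.8) and Aco1 (21.97) overlapped as neighbours. In the libraries labelled inflamed CCR1 Tfrc (23.5) came second, overlapping Fth1 (14.4), and Slc11a1 (0.234) last.

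Genes most like each member over the 19 libraries were ranked by Pearson's r of log2 CPM among 7685 genes. The libraries fall into resting, inflamed and CCR1 clusters and share their scaling, so r describes these steps and no p is given. Iscu was most like Mgat2, Yipf4 and Marc2 (r = 0.998, 0.997 and 0.997), and Fth1 most like Spr, Smpdl3a and Hpcal1 (0.99, 0.99 and 0.988). Ftl1 was most like Ndufaf7, Leprot and Zfp971 (0.991, 0.99 and 0.989), and Aco1 most like Arl6ip5, Cndp2 and Pisd (0.989, 0.986 and 0.986). Tfrc, which marked the CCR1 libraries, was most like Serpinb1a, Dars and Atrn (0.984, 0.982 and 0.977), and Slc11a1, near 0 there, most like Cd300lg, Pgap1 and P2ry10b (0.995, 0.994 and 0.993). Slc11a2 was most like Eif1a, Slc35b1 and Acsl5 (0.978, 0.976 and 0.957). Ireb2, whose group means spanned 32.4 to 48.1 CPM, had lower values, with Fam114a2, Ptprc and Acbd5 (0.919, 0.90 and 0.887).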

How the data were processed

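The deposited values are raw read counts per gene, not normalized. By the study's methods and the submitters' processing notes, the authors passed paired reads through fastp, aligned them to GRCm38 with STAR 2.7.10a, kept reads with 1 alignment and counted them with STAR. The strand setting is not given in the sources used here, so antisense reads cannot be told apart, and no molecular identifiers were used. Groups came from the sample labels of 19 libraries; 1 further column of the table matched no sample and was not used. Of 50854 genes, 18652 that averaged 1 read or more over the 19 libraries were tested. The libraries of the 2 groups in question entered each fit, a robust quasi-likelihood test (edgeR 4.0.16, R 4.3.3; TMM scaling, two-sided) with Benjamini-Hochberg adjustment over all genes tested, and a gene passed at an adjusted p below 0.05. Members' mean CPM were also compared by exact permutation over libraries (two-sided).

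The members and lists were chosen with earlier results of these data known. Named wider genes are the 2 with the smallest p in each list and direction for inflamed against resting CCR2+ve cells, and the 2 in each direction over all lists elsewhere; for likeness, the 3 with the highest r among genes with a mean of at least 10 CPM. Exceptions are marked in the text. A gene that this rule names is not reported here. Other settings tried were DESeq2 1.42.0, RLE scaling within edgeR, all genes unfiltered, filterByExpr, all 19 libraries in one fit, the replicate number as a block, a log2 fold cutoff of 1, each library left out and a GC offset, alone or with the block. The check of pairing was the correlation over 7685 genes of deviations from group means. It gave 0.31 to 0.61 over 4 same-numbered pairs of resting CCR1/2 and CCR2 libraries. Over 4 pairs of inflamed CCR1 and CCR2 libraries it gave 0.13 to 0.25. The numbers were taken to pair these, on this correlation alone, which is weak for the inflamed libraries. Positions, exon lengths and UTRs are from GENCODE M21. The fits were tested on simulated data.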

Additional observations from a re-analysis of the deposited data

Results flagged for a closer look

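Within groups of 4 libraries, the level of a member stood apart from the other libraries of its group in 3 of 32 cases, where chance gives about 1 in 20. Ftl1 was at 2788 CPM in inflamed CCR2 replicate 2, below the others. Tfrc was at 9.81 CPM in resting CCR2 replicate 2, above the others. Ireb2 was at 46.5 CPM in inflamed CCR2 replicate 3, above the others.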

How the results depend on the processing

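With a log2 fold cutoff of 1, members passing upward fell to 1 and wider genes to 9 for inflamed against resting CCR2+ve cells, beside 1748 of all 18652 genes. For resting CCR1/2 against CCR2 members were 0 up and 0 down and wider genes 1 and 2, beside 437 and 355 of all genes. For inflamed CCR1 against CCR2 wider genes were 10 up and 23 down, beside 2695 and 3135 of all genes. Against CCR1/2 they were 11 and 19, beside 2454 and 2718 of all genes. With all 19 libraries in one fit, the resting comparison gave 0 members up and 1 down and 5 wider genes up, beside 1006 of all genes up and 1540 down. Fth1 (−0.51), Slc11a1 (−0.67) and Tfrc (0.81) lost their calls at changes close to the reported ones, and the cause was not tested. With the replicate block the resting comparison gave 5 members and 19 wider genes down, beside 2470 of all genes. With GC offset and block it gave 5 and 20, beside 2752 of all genes. Leaving out 1 library there gave 0 to 1 members up. For inflamed CCR1/2 against CCR2, GC offset and block gave 1 member up (Ftl1, 0.47), beside 147 of all genes up and 64 down. All genes passed as 23 up and 12 down in the main fit and 141 and 124 by DESeq2. They passed as 141 and 81 with the block, 112 and 36 in one fit and 83 and 37 without the filter. Signs turned only for changes that did not pass: Ireb2, inflamed against resting CCR2, at 0.17 with the GC offset and 0.18 with the block too; Aco1, inflamed CCR1/2 against CCR2, at −0.061 with the replicate block, −0.019 with GC offset and block and −0.066 to 0.091 with a library left out; and Ireb2 there at −0.0070 to 0.19 with a library left out. The log2 fold cutoff left aside, members' log2 changes kept direction and call in 124 of 128 alternatives for inflamed against resting CCR2. They did so in all 128 and 120 run for inflamed CCR1 against CCR2 and CCR1/2. With the cutoff, Iscu (−0.996) and Ireb2 (−0.44) do not pass for inflamed CCR1 against CCR2, nor does Ireb2 (−0.56) against CCR1/2. Ftl1 (0.43) and Aco1 (0.34) do not pass it for inflamed against resting CCR2. Outside the resting comparison the replicate block alone changed no member's call; outside the 2 comparisons named in the methods same-numbered libraries correlated at −0.32 to 0.50 and share only a number. Iscu in inflamed libraries rests on 65 to 211 reads each.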
